A study of Mus musculus with 69 samples.

Results

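Pomc and 6 genes that regulate it or its secretion were followed through pituitary, hypothalamus and ovary of female mice in which the miR-200a/b sites of Zeb1 had been mutated. The 7 genes, Pomc, Tbx19, Pax7, Neurod1, Crhr1, Avpr1b and Mc2r, were picked by name and make up 7 of the 55964 gene IDs counted in the series. Each was found by its symbol in a deposited table that pairs symbols with Ensembl IDs, and each had a row in every table of its tissue and cohort. On GRCm38 the 4 genes that the results turn on lie at chr12:3954951-3960642 (Pomc, plus strand), chr1:165137855-165160773 (Tbx19, minus strand), chr4:139737062-139833528 (Pax7, minus strand) and chr11:104132855-104175523 (Crhr1, plus strand). The 7 genes mark corticotropes and melanotropes or act in their signalling, so their levels ask what the Zeb1 mutation does to these cells of the pituitary.

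RNA was sequenced from whole tissue of C57BL/6J females in proestrus. The young cohort held virgin females of 8 to 12 weeks, and the older cohort females of 28 to 36 weeks that had finished a breeding trial. Within each cohort WT animals were set beside animals heterozygous (200H) or homozygous (200M) for a Zeb1 knock-in allele whose 3′UTR lacks working miR-200a/b sites. The allele was carried from 2 embryonic stem cell clones and backcrossed to C57BL/6J, and it is present in every cell of the animal. Each of the 18 groups had 4 libraries, except for 3 in the young WT pituitary, the older 200M pituitary and the older 200M hypothalamus. Per the study's methods, each replicate of a group came from another mouse. The labels do not say which tissues came from the same mouse, and the main tests between tissues did not pair libraries. Age, breeding history and library chemistry changed together between the cohorts and cannot be told apart.

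Pomc encodes the precursor that corticotropes of the anterior lobe cleave to ACTH and melanotropes of the intermediate lobe cleave further to α-MSH. Tbx19 is the T-box factor that drives Pomc transcription in both cell types, Pax7 opens the chromatin that gives melanotropes their identity, and Neurod1 helps to switch Pomc on in early corticotropes. Hypothalamic CRH and vasopressin reach corticotropes through the receptors Crhr1 and Avpr1b, and secreted ACTH acts on the adrenal cortex through Mc2r. In the hypothalamus Pomc is made by neurons of the arcuate nucleus that curb feeding.

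The miRNAs whose control of Zeb1 is removed are shown first, because their seeds decide which other transcripts they can pair with. In the mature sequences from RefSeq (GRCm38.p6) the seed, bases 2 to 8 from the 5′ end, is in capitals. The first 2 share one seed and the last 3 share the other.
mmu-miR-141-3p: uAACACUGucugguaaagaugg
mmu-miR-200a-3p: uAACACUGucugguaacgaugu
mmu-miR-200b-3p: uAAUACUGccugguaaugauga
mmu-miR-200c-3p: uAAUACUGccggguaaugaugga
mmu-miR-429-3p: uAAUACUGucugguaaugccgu

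Matches to these seeds were sought in the GENCODE M21 3′UTRs of the 7 genes, as the 8-base site CAGTGTTA or CAGTATTA or either 7-base part of it. Only 2 of the 7 genes held one, both for the miR-141/200a family, and 0 of the 7 held one for the miR-200b/c/429 family. Over 21045 genes with a 3′UTR the shares were 21.74% and 18.16%. The matches are in capitals within 30 bases of the UTR. The Pax7 match lies at base 3489 of a 3725-base UTR, and the Crhr1 match at base 378 of 995. Both are descriptions of letters in the reference and no measure of repression.
Pax7: cattgttgcttCAGTGTTtggctcagccat
Crhr1: taaagtctctgAGTGTTAgcgatgccttgg

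ZEB1 binds E-boxes, so the RefSeq promoters of the genes, 250 bases before to 50 after the start (GRCm38.p6), were searched on both strands for CACCTG. The study gives the ZEB1 consensus as CAGGTR. Only its CAGGTG form, which reads CACCTG on the other strand, was searched, and CAGGTA sites were not counted. Pomc and Tbx19 held CACCTG on either strand, as did 20.21% of 32851 promoters. The Pomc promoter also held CATCTG, an E-box that NEUROD1 can bind, present in 17.15% of promoters. The AAAGGTCA monomer site of NR4A factors, in 1.51% of promoters, was found in none of the 5 promoters searched. The Avpr1b and Mc2r promoters were not analysed here. The E-boxes are in capitals in the sequences of the gene strand, and their start is counted from the transcription start. The first lies 66 bases upstream of Tbx19 (minus strand, chr1:165160823-165160850), the next 200 bases upstream of Pomc (plus strand, chr12:3954734-3954761) and the last 147 bases upstream of Pomc (chr12:3954787-3954814).
Tbx19: aggctgactccCACCTGatccagtgagt
Pomc: accaccagcgcCAGGTGtgcgcttcagc
Pomc: cgctttccaggCAGATGtgccttgcgct

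Libraries held from 3321845 to 14655095 counts assigned to genes, with the fewest in the young hypothalamus (at most 5143128). Levels are given as CPM, counts scaled to a common library size with TMM factors, and changes as log2 fold changes ± SE from edgeR's quasi-likelihood test with Benjamini-Hochberg adjustment over all genes tested, a gene being called at an adjusted p under 0.05. Zeb1 checked the genotype labels in the pituitary, where it rose 1.44-fold in young 200M (adjusted p = 2.4e-05) and 1.36-fold in young 200H (adjusted p = 0.000895). The rise in older 200M was 1.46-fold (adjusted p = 0.000833), and that in older 200H 1.26-fold (adjusted p = 0.0139). It was not called in the hypothalamus or ovary. Scaling by total counts alone, in place of TMM factors, moved the median log2 fold change of all genes by 0.12 to 0.18 upward in the 4 pituitary comparisons with WT, and the share of calls that were increases went from 53.5% to 76.8% in young 200M, from 53.4% to 79.6% in young 200H, from 54.4% to 84.0% in older 200M and from 58.0% to 87.1% in older 200H. The summed CPM of 10 markers of other hormone cells, Gh and Prl among them, was lower in both mutant genotypes: 160649 to 184272 in young WT, 70558 to 99079 in young 200H and 65687 to 88277 in young 200M, and 278063 to 321199 in older WT, 142843 to 224367 in older 200H and 139962 to 184501 in older 200M. Its part in the results was not tested. The libraries are bulk RNA, in which fewer cells of a type and less RNA per cell cannot be told apart. Where groups are said not to overlap, the share of all genes that separate so was not counted, and the statement describes libraries only.

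In WT tissue Pomc, Tbx19, Pax7 and Avpr1b were mainly pituitary mRNAs, while Crhr1 and Neurod1 were also measurable in the hypothalamus and Mc2r was highest in the ovary. Per kilobase of exon, the scale on which genes can be compared, Pomc led in the young WT pituitary at 571 CPM per kb ± 106 (SD, n = 3). Tbx19 followed at 24.4 ± 1.57, Neurod1 at 8.74, Pax7 at 5.31, Crhr1 at 2.43 and Avpr1b at 0.478. The order in the older WT pituitary was the same except for Neurod1, which dropped below Crhr1: Pomc 7463 CPM per kb, Tbx19 22.2, Pax7 7.72, Crhr1 5.65, Neurod1 1.51 and Avpr1b 0.65. Between the cohorts Pomc differed most, with the higher level in the older mice, and Neurod1 came next with the higher level in the young. The cohorts were prepared differently, and these levels were not compared by a test.

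Between WT tissues of the young cohort, Pomc, Pax7, Tbx19 and Neurod1 were higher in pituitary than hypothalamus, where 72.2% of all genes were called and 36.8% were higher. A gene was tested if its counts passed the filter in either tissue, and Pax7, with 0 to 3 counts in each hypothalamus library, passed it through the pituitary, so how many of the 7 differed is not read as a result. Pomc stood 6.83 log2 units higher (114-fold), Pax7 6.26, Tbx19 5.27 and Neurod1 2.83-fold higher, while Crhr1 differed by 0.40 (adjusted p = 0.216). Pituitary exceeded ovary, where 32.7% of all genes were higher, 35.6% lower and 68.3% called in all, by 11.38 log2 units for Pomc, 6.19 for Tbx19, 5.77 for Neurod1, 4.94 for Pax7, 2.06 for Avpr1b and 1.68 for Crhr1. The WT ovary libraries held only 1 to 4 counts of Pomc, 2 to 9 of Neurod1, 3 to 8 of Avpr1b and 3 to 20 of Pax7. Pomc, Neurod1 and Avpr1b passed the filter through the pituitary. The sizes of these differences are therefore uncertain, and how many genes differed is not read as a result. Mc2r, which passed the filter through the ovary alone, had 2, 0 and 3 counts in the WT pituitary libraries and 9, 12, 17 and 23 in the WT ovary libraries. The hypothalamus exceeded the ovary (36.1% of all genes were higher, 76.7% called), by 4.57 log2 units for Pomc, 4.29 for Neurod1 and 1.32 for Crhr1. Here Pomc and Neurod1 passed the filter through the hypothalamus, so their values carry the same limit. In the older cohort the pituitary again exceeded the hypothalamus (37.6% of all genes higher, 76.8% called), with Pomc 7.50, Pax7 6.74, Tbx19 5.28, Neurod1 1.06 and Crhr1 0.53 log2 units higher. Pax7 again had few counts in the hypothalamus, 4 to 7 per WT library. The Crhr1 difference was not called under total-count scaling (0.30, adjusted p = 0.0587). Avpr1b had 0 counts in the 4 older WT hypothalamus libraries, so its pituitary level of 2.62 CPM was at least 41.1-fold above the limit of 3 counts over that group.

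**Figure D1:**
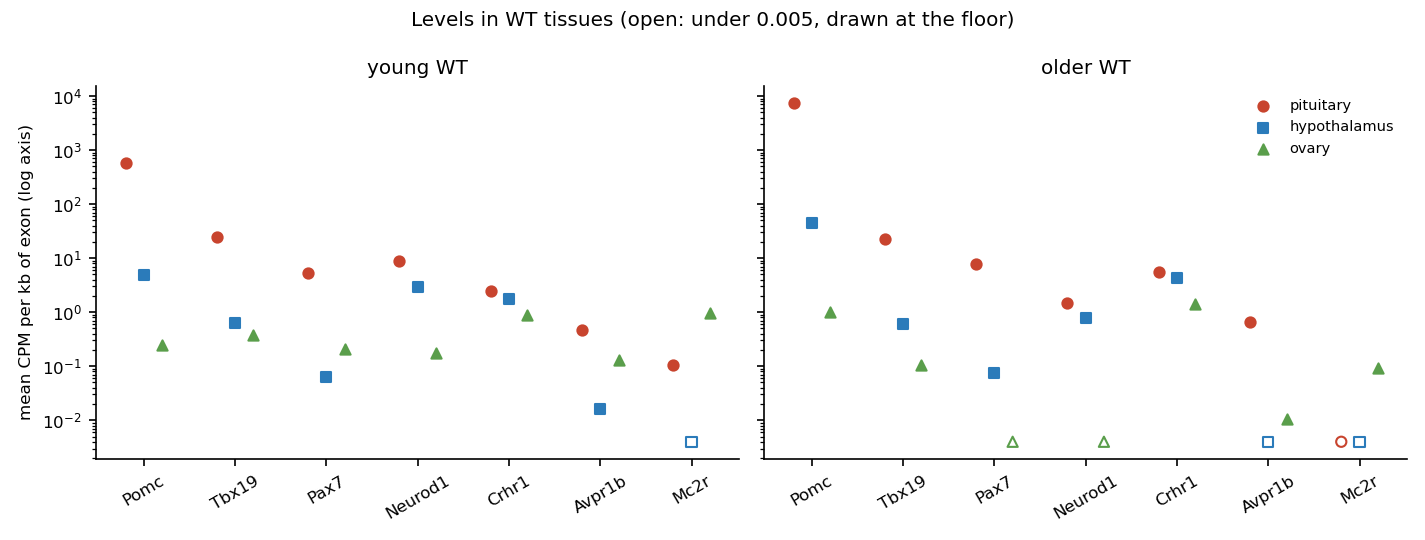
Level of the 7 genes in WT tissue, in CPM per kilobase of exon on a log axis, with 1 point for the mean of each tissue (circles pituitary, squares hypothalamus, triangles ovary) in the young (left) and older (right) cohort. Open points lie under 0.005 and are drawn at the floor of the plot. Pomc in the pituitary sits above every other gene, Crhr1 reaches all 3 tissues, and Mc2r is highest in the young ovary.

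Against WT, the pituitary of both cohorts gained Crhr1 mRNA in both genotypes, young pituitaries gained Tbx19 and older 200M pituitaries gained Pomc and Pax7. These are calls within a cohort. A difference of the effect between cohorts was called in 0 of 6 genes for 200M and 0 of 6 for 200H (0.0273% and 0.011% of all genes). In the young 200M pituitary 2 of the 6 genes tested rose and 0 fell, where 21.5% of all genes were called, 11.5% as higher and 10% as lower. In young 200H the count was again 2 rising and 0 falling, where 12.3% were called, 6.56% as higher and 5.72% as lower. In older 200M 3 of 6 rose and 0 fell, where 21.4% of all genes were called, 11.7% as higher and 9.77% as lower. In older 200H 1 of 6 rose and 0 fell, where 12.2% were called, 7.09% as higher and 5.14% as lower. Of the 7 genes, Mc2r did not pass the filter on low counts in any of the 4 comparisons. The median log2 fold change over the 6 genes was 0.18 in young 200M, 0.36 in young 200H, 0.45 in older 200M and 0.0093 in older 200H, and over all genes it was 0.0017, 0.0067, -0.013 and -0.0083. Directly compared, 200M and 200H differed in 0 of 6 genes in either cohort by edgeR (0.0383% of all genes called in young, 0.121% in older), and DESeq2 called 0 in both. At an unadjusted p under 0.05 there were 2 genes among young mice and 1 among older mice, beside 1081 of 18271 and 1575 of 14862 genes in all. Over all genes DESeq2 called 46 in young and 122 in older mice.

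**Figure D2:**
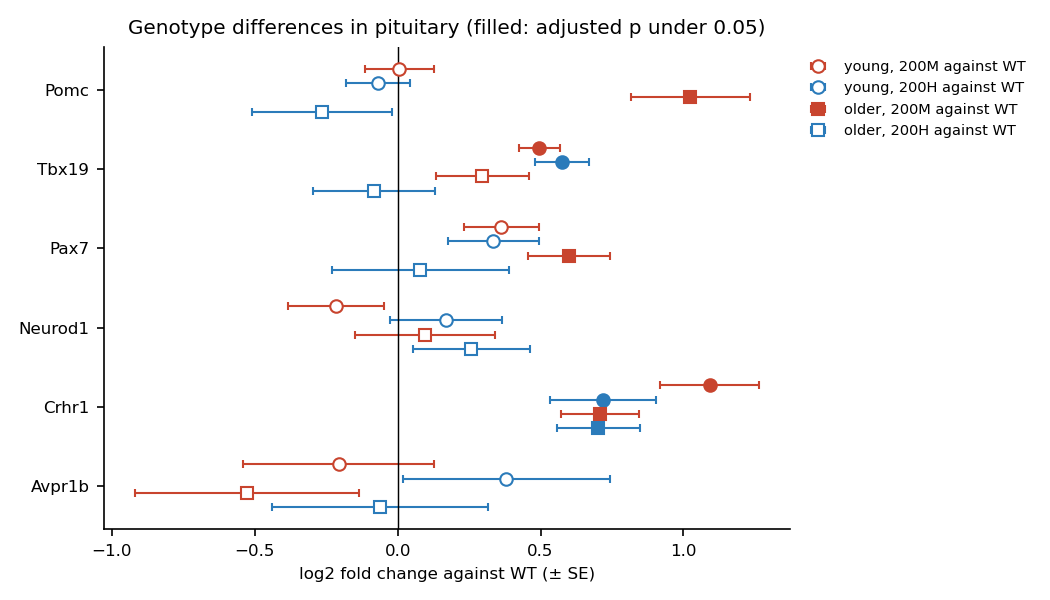
Log2 fold change against WT of 6 genes in the pituitary, with bars of 1 SE, for 200M (red) and 200H (blue) in the young (circles) and older (squares) cohort. Filled points are called at an adjusted p under 0.05. Crhr1 is above 0 and called in all 4 comparisons, Tbx19 in the 2 young ones, and Pomc and Pax7 in older 200M alone. No effect of these genes was called as different between the cohorts.

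Pomc, the hormone precursor, did not separate the genotypes in young pituitaries. Its level was 894, 749 and 614 CPM in WT, 721, 705, 840.1 and 622 CPM in 200H, and 689, 642, 946 and 754 CPM in 200M. The 3 ranges overlapped, with a log2 fold change of 0.01 ± 0.12 for 200M (adjusted p = 0.981) and one of -0.07 ± 0.11 for 200H (adjusted p = 0.757).

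In older pituitaries Pomc was 8725, 9338, 9229 and 12055 CPM in WT, 3763, 9537, 10479 and 8853 CPM in 200H, and 11326, 23993 and 24297 CPM in 200M. Replicates 2 and 3 of 200M stood above every other library, replicate 1 of 200M lay inside the WT range, and replicate 1 of 200H was the lowest of all. Pomc rose 2.03-fold in 200M (1.02 ± 0.21, adjusted p = 0.00469), and the call held in all 13 alternative settings and omissions. In 200H the value was -0.27 ± 0.24 (adjusted p = 0.536), and between 200M and 200H it was 1.28 ± 0.31 (adjusted p = 0.133), which was called when 200H replicate 2 was left out (adjusted p = 0.0409). The 200M effect on Pomc was 0.97 ± 0.27 larger in the older than in the young pituitary on the log2 scale, with an unadjusted p of 0.00179 and an adjusted p of 0.49 over all genes, so this difference between cohorts was not called (0.0273% of all genes were). Without older 200M replicate 1 it was called, at 1.31 and an adjusted p of 0.00936.

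Tbx19, the transcriptional driver of Pomc, rose in the young pituitary, where Pomc was not called. It was 80.9, 80.7 and 72.1 CPM in WT, 106, 112, 118 and 132 CPM in 200H, and 118, 105, 109.5 and 108 CPM in 200M. Every 200H and 200M library was above every WT library. The rise was 1.41-fold for 200M (0.49 ± 0.072, adjusted p = 0.000173) and 1.49-fold for 200H (0.57 ± 0.094, adjusted p = 0.00146), and both calls held in all 13 alternatives. In older pituitaries Tbx19 was 80.2, 65.6, 52.2 and 85.8 CPM in WT, 38.5, 75.4, 86.8 and 68.6 CPM in 200H, and 67.4, 97.3 and 95.3 CPM in 200M. These ranges overlapped, with a log2 fold change of 0.30 ± 0.16 for 200M (adjusted p = 0.222) and one of -0.08 ± 0.21 for 200H (adjusted p = 0.846). The 200H effect differed between cohorts by -0.67 ± 0.26 (unadjusted p = 0.0178, adjusted p = 0.72), and 0.011% of all genes were called in that comparison.

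Pax7, the melanotrope selector, was 35.5, 25.8 and 32.0 CPM in young WT, 31.9, 33.1, 50.3 and 43.1 CPM in 200H, and 41.4, 31.1, 44.0 and 44.4 CPM in 200M. The groups overlapped, and neither difference was called (200M 0.36 ± 0.13, adjusted p = 0.0644, and 200H 0.33 ± 0.16, adjusted p = 0.207). The 200M difference was called without 200M replicate 2, the lowest of its group (0.47, adjusted p = 0.0101), under total-count scaling (0.48, adjusted p = 0.0133) and with no filter on low counts (0.40, adjusted p = 0.00292). In older pituitaries it was 41.9, 42.5, 47.0 and 49.6 CPM in WT, 15.6, 46.4, 66.4 and 63.7 CPM in 200H, and 48.5, 81.8 and 72.6 CPM in 200M. The order of the libraries was that of Pomc at both ends, with 200M replicates 2 and 3 on top and 200H replicate 1 at the bottom. Pax7 rose 1.52-fold in older 200M (0.60 ± 0.14, adjusted p = 0.0115), but the call was lost without 200M replicate 2 (0.45, adjusted p = 0.0777) or 200M replicate 3 (adjusted p = 0.0568), and when all 3 genotypes shared 1 fit (adjusted p = 0.202). In older 200H the value was 0.08 ± 0.31 (adjusted p = 0.902).

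**Figure D3:**
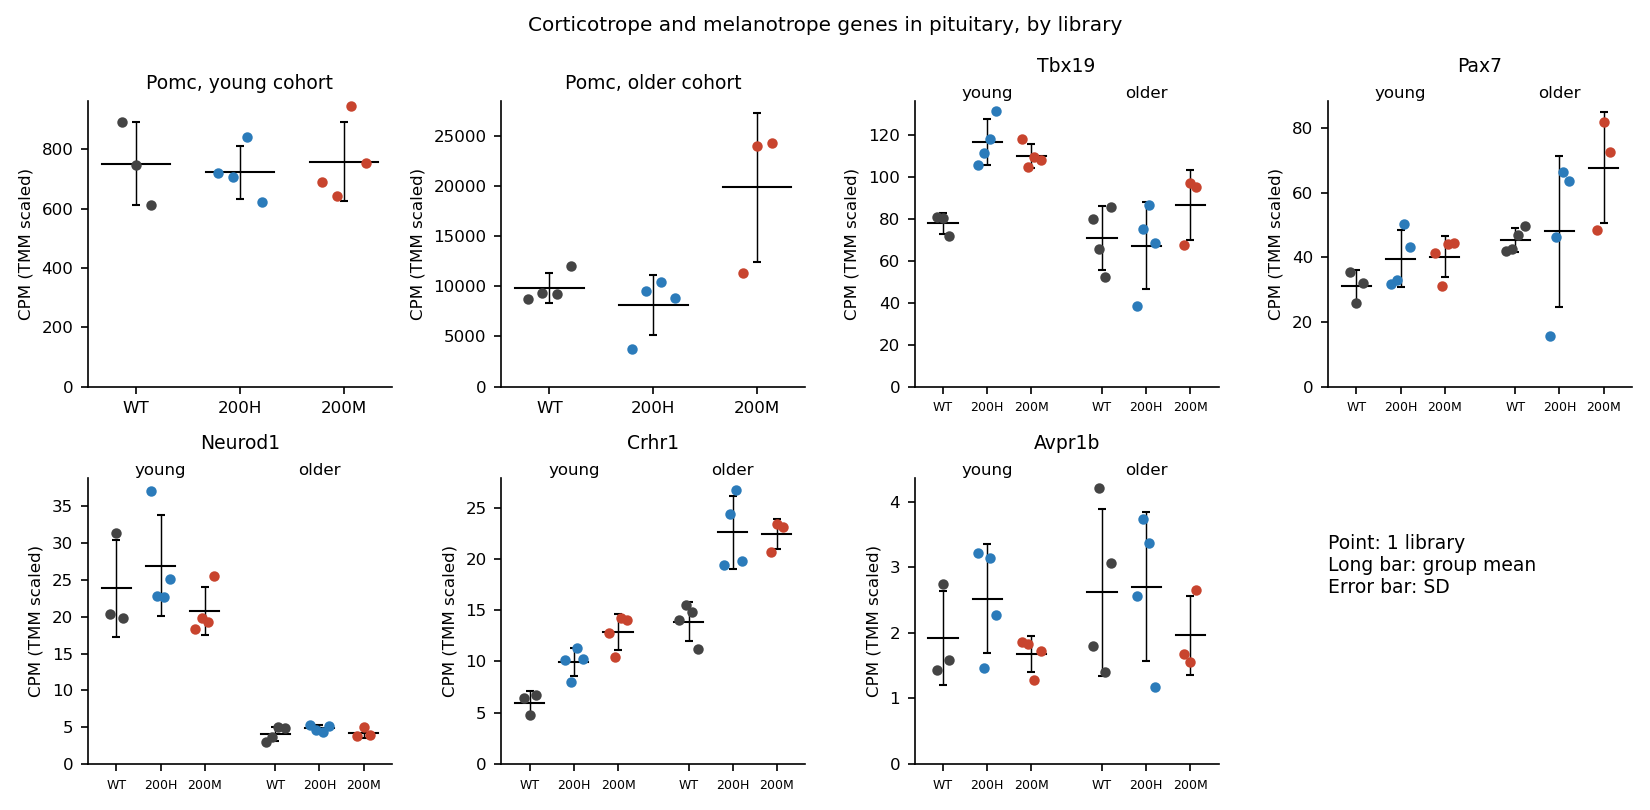
CPM of 6 genes in every pituitary library, by genotype and cohort, with a long bar at each group mean, an error bar of 1 SD and a separate axis for each gene. Crhr1 in both cohorts and Tbx19 in the young cohort show no overlap of 200H or 200M with WT, and older 200M replicates 2 and 3 lie highest in Pomc and Pax7. The share of all genes without overlap was not counted.

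From the melanotrope marker list, Oacyl and Pcsk2 moved with Pomc and Pax7 across the older libraries. Of the 4 genes of that list, 3 rose in older 200M: the prohormone convertase Pcsk2 by 0.84, Oacyl by 0.79 and Rbfox3 by 1.35 log2 units. Over all genes 11.7% were called as higher there. Rbfox3 was not followed library by library. The other gene of the list, Drd2, was not called there. Oacyl read 507 and 452 CPM in 200M replicates 2 and 3 and 62.5 CPM in 200H replicate 1. The summed CPM of the 4 was 483 to 783 in older WT, 259 to 615 in older 200H and 604 to 1137 in older 200M, and none of the 4 was at 0. In young pituitaries the sums were 545 to 703 in WT, 632 to 649 in 200H and 528 to 737 in 200M, where the dopamine receptor Drd2 was called and lower (-0.50 in 200M, -0.37 in 200H). Taking Pomc as a ratio to Oacyl within each library, older WT read 45.1 ± 7.95 (SD, n = 4), older 200H 49.2 ± 7.72 (n = 4) and older 200M 52.4 ± 4.50 (n = 3). As a ratio to Pcsk2 the means were 41.7, 37.0 and 45.8, and as a ratio to Pax7 they were spread more widely, at 217, 186 and 287. In young pituitaries the ratio to Oacyl was 3.73 in WT, 3.68 in 200H and 4.52 in 200M. The ratios are descriptions, chosen after the values were seen.

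Markers of the neural lobe, which adjoins the intermediate lobe, were also measured. The sum of the 5 listed was 65.2 to 71.1 CPM in older WT, 61.1 to 94.1 in older 200H and 90.2 to 120 in older 200M, where Col25a1 (0.56) and Oxt (1.25) were called as higher. In older 200H replicate 1, the library low in Pomc and Pax7, the neural lobe marker Rax was at 0.116 CPM and Oxt at 0.233 CPM. In young pituitaries the sum was 96.1 to 114 CPM in WT, 118 to 130 in 200H and 125 to 149 in 200M. A list of 4 neuronal genes summed to 546 to 585 CPM in older WT, 626 to 722 in older 200H and 774 to 854 in older 200M. The share of each lobe in a sample was not measured, and the part of these markers in the Pomc and Pax7 results was not tested. The 3 corticotrope markers outside the 7 genes, Gpc5, Tnnt1 and Tnni3, summed to no more than 7.71 CPM in any pituitary library. Corticotropes were therefore not tracked well by that list. In young pituitaries the sum was 3.7 to 4.62 CPM in WT, 3.003 to 3.041 in 200H and 1.498 to 3.455 in 200M. Both young mutant ranges lay below that of WT, whereas Tbx19 and Crhr1 were higher there. The older ranges overlapped, at 5.91 to 7.71 CPM in WT, 5.65 to 6.57 in 200H and 5.42 to 6.49 in 200M. These sums were not tested.

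**Figure D4:**
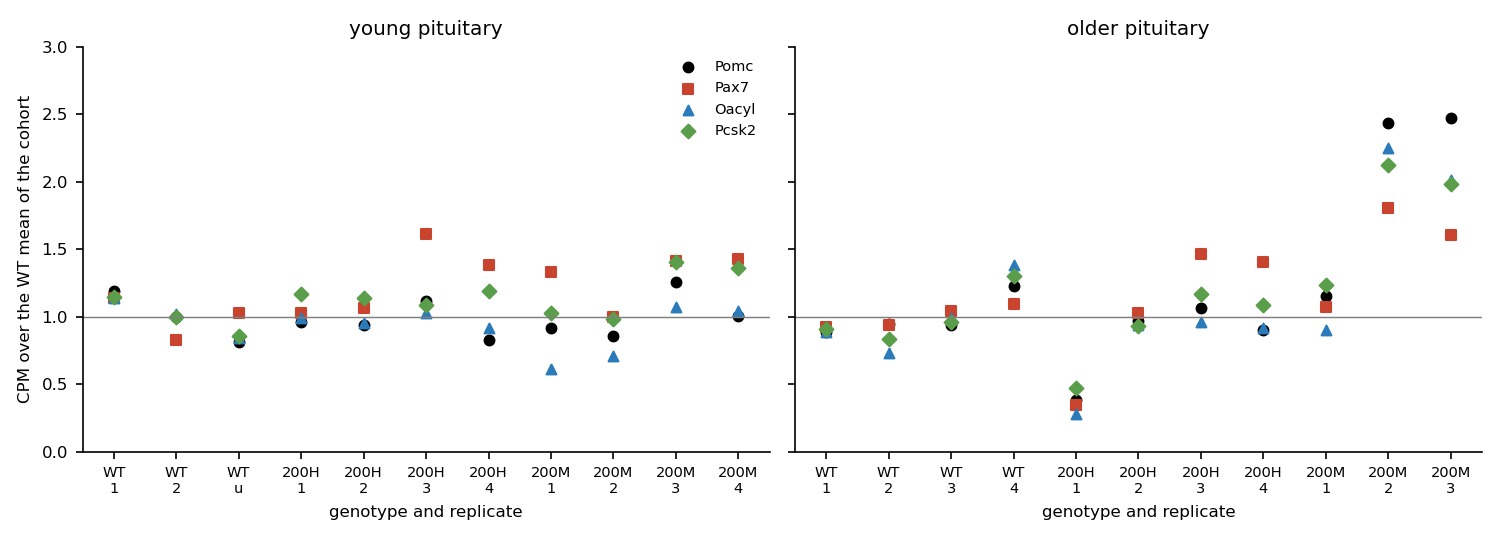
CPM of Pomc, Pax7, Oacyl and Pcsk2 in each pituitary library divided by the WT mean of the same cohort and gene, young on the left and older on the right, with a line at 1. In the older cohort, for all 4 genes, 200M replicates 2 and 3 are the highest and 200H replicate 1 is the lowest.

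Neurod1 and Avpr1b were not called in any of the 4 pituitary comparisons with WT. Neurod1 ranged from 18.3 to 37.1 CPM over the young libraries and from 3.04 to 5.23 CPM over the older ones, and its log2 fold changes lay between -0.22 ± 0.17 (young 200M, adjusted p = 0.412) and 0.26 ± 0.20 (older 200H, adjusted p = 0.458). Its exons share 201 bases with Cerkl on the same strand and 154 with Gm26755 on the other, and the older libraries were counted without strand, so its level is uncertain. Avpr1b was low, at 1.27 to 3.22 CPM in young and 1.17 to 4.20 CPM in older pituitaries, and its log2 fold changes were -0.21 ± 0.33 in young 200M (adjusted p = 0.72), 0.38 ± 0.36 in young 200H (adjusted p = 0.574), -0.53 ± 0.39 for older 200M (adjusted p = 0.371) and -0.06 ± 0.38 for older 200H (adjusted p = 0.94). At SEs of this size a change such as that of Tbx19 could not be seen in Avpr1b. Mc2r had 0 to 3 counts in each young pituitary library. It had 0 in all 11 older ones, which allows up to 0.036 CPM over the 83364765 counts of the cohort (counting error only).

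Crhr1, the CRH receptor, was the gene of the 7 that rose in the pituitary in both genotypes and both cohorts. In young pituitaries it was 6.44, 4.73 and 6.77 CPM in WT, 10.2, 7.98, 11.3 and 10.3 CPM in 200H, and 12.7, 10.4, 14.2 and 14.1 CPM in 200M. Every 200H and 200M library exceeded every WT library, and the lowest 200M library lay inside the 200H range. The rise was 2.13-fold for 200M (1.09 ± 0.17, adjusted p = 0.000363) and 1.64-fold for 200H (0.72 ± 0.19, adjusted p = 0.0232), with 0.37 ± 0.14 between the 2 genotypes (adjusted p = 0.75). The 200M call held in all 13 alternatives, while the 200H call was lost on leaving out WT replicate 1, WT replicate 2, 200H replicate 1 or 200H replicate 4, with adjusted p up to 0.0865.

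In older pituitaries Crhr1 was 14.1, 15.5, 14.8 and 11.2 CPM in WT, 19.4, 24.4, 26.7 and 19.8 CPM in 200H, and 20.7, 23.4 and 23.1 CPM in 200M. Again no 200H or 200M library fell into the WT range, while 200M lay wholly inside the 200H range. The log2 fold changes were 0.71 ± 0.14 for 200M (1.63-fold, adjusted p = 0.00354) and 0.70 ± 0.15 for 200H (1.63-fold, adjusted p = 0.00785), and both held in every alternative run. Older 200H replicate 1, the lowest library for Pomc and Pax7, was above all WT libraries for Crhr1. The 200M effect differed between cohorts by -0.44 ± 0.22 (adjusted p = 0.744).

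Crhr1 was also tested in the hypothalamus and ovary of both cohorts. In the older hypothalamus it was 10.8, 9.90, 11.3 and 9.82 CPM in WT, 11.4, 11.7, 12.5 and 14.9 CPM in 200H, and 14.3, 14.6 and 15.1 CPM in 200M. Neither genotype overlapped WT, and 2 of the 3 200M libraries lay below the highest 200H library. How many of all genes separate in this way was not counted. The value in 200M was 0.49 ± 0.12 (unadjusted p = 0.00156, adjusted p = 0.112) and in 200H 0.27 ± 0.12, neither called by edgeR. In that 200M comparison 2904 of 16067 genes had an unadjusted p under 0.05. Leaving out 1 library at a time gave Crhr1 in 200H an adjusted p of at least 0.998. In the young hypothalamus the 200M value was 0.013 ± 0.33 (adjusted p = 0.996), in the libraries of lowest depth.

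In the older ovary Crhr1 was 2.89, 1.92, 3.83 and 5.09 CPM in WT, 3.23, 0.755, 4.65 and 4.48 CPM in 200H, and 11.5, 19.9, 9.31 and 12.2 CPM in 200M. The 200M libraries stood above all others. Crhr1 rose 3.88-fold in 200M (1.96 ± 0.35, adjusted p = 0.0272), stood at -0.02 ± 0.50 in 200H (adjusted p = 0.992), and differed by 1.99 ± 0.50 between 200M and 200H (adjusted p = 0.0993). The call was lost on leaving out WT replicate 2, WT replicate 3, 200M replicate 1 or 200M replicate 4, with adjusted p of up to 0.084. In the young ovary the 200M value was 0.09. The study describes few corpora lutea in homozygous mutant ovaries of the older mice. It proposes that expression changes in such ovaries follow from rarer ovulation. Tissue marker sums of older ovaries overlapped in range between WT and 200M, but their medians differed, and they were not tested. The corpus luteum and theca list summed to 11422 to 27202 CPM in WT (median 18186) and 5252 to 13190 CPM in 200M (median 11073). The adrenal cortex list summed to 25.0 to 115 CPM in WT (median 74.8) and 12.7 to 27.1 CPM in 200M (median 17.1). The fat list went the other way, at 83.2 to 301 CPM in WT (median 188) and 151 to 1828 CPM in 200M (median 232). Cyp11a1 (adjusted p = 0.125) and Fabp4 of the fat list (adjusted p = 0.205) were not called. Star, which carries cholesterol into mitochondria for steroid synthesis, was 13.6-fold lower (adjusted p = 0.0222). The part of these markers, and of tissue composition, in the Crhr1 value was not tested.

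The effect of 200M on Crhr1 in pituitary minus that in hypothalamus was 1.08 ± 0.36 log2 units in young mice (adjusted p = 0.0534), and in older mice it was 0.21 ± 0.18 (adjusted p = 0.439). Neither difference between tissues was called by edgeR, where 10.5% and 17.5% of all genes were, and DESeq2 called the young one (adjusted p = 0.0451). The young one was also called when pituitary 200M replicate 2, hypothalamus WT replicate 1, hypothalamus WT replicate 4 or hypothalamus 200M replicate 2 was left out, with adjusted p from 0.0316 to 0.0433.

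**Figure D5:**
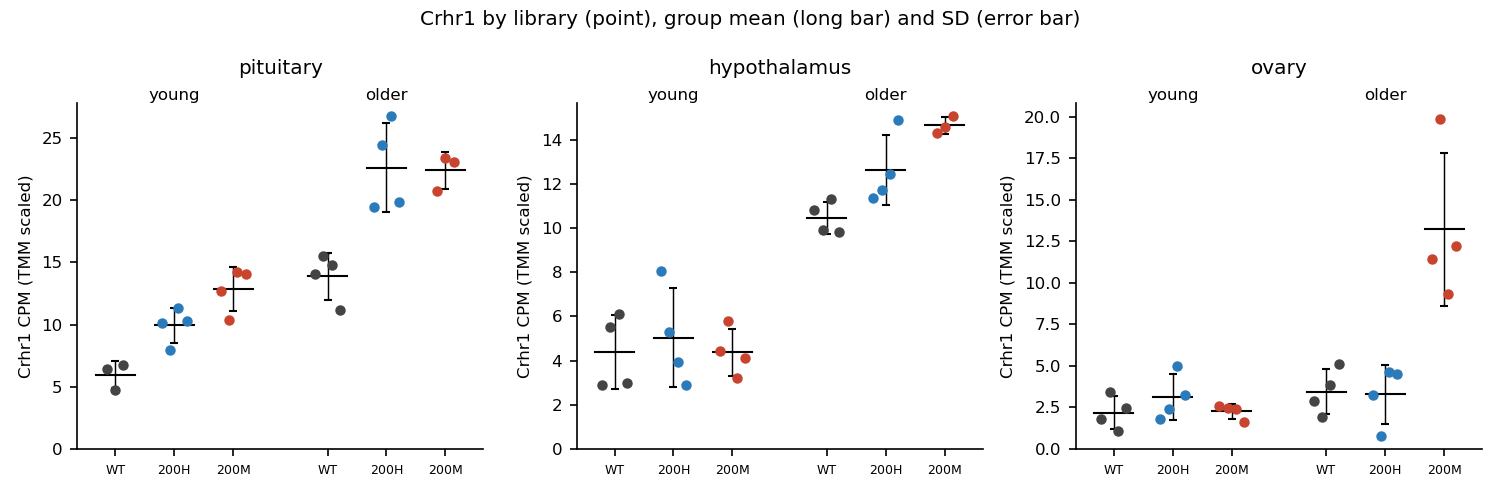
CPM of Crhr1 in every library of pituitary, hypothalamus and ovary, by genotype and cohort, with a long bar at each group mean and an error bar of 1 SD. The 200M libraries lie above WT without overlap in both pituitary cohorts, the older hypothalamus and the older ovary. The share of all genes that separate so was not counted, and the hypothalamus difference was not called by edgeR.

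Outside the pituitary, Crhr1 in the older 200M ovary was the 1 call among the 7 genes, where 2 genes were tested and 2.71% of all genes were called. In the young hypothalamus 0 of 4 genes tested were called in 200M and 0 of 3 in 200H (0.02% and 0.0202% of all genes), and in the older hypothalamus 0 of 4 in each (0.00622% and 0%), by edgeR. At an unadjusted p under 0.05 there were 2 in older 200M and 1 in older 200H, beside 2904 of 16067 and 445 of 15910 genes in all. DESeq2 called 1 and 0 of the 7, beside 619 and 5 genes in all. In the young ovary 0 of 3 genes were called in 200M and 0 of 4 in 200H (2.58% and 0.0051% of all genes), and in the older ovary 0 of 2 in 200H (0%). Between 200M and 200H 0 members were called in the hypothalamus or ovary of either cohort by edgeR. Over all genes 0% were called in both hypothalamus cohorts and the young ovary and 1.61% in the older ovary. DESeq2 called 1 of the 7 in the older ovary, beside 863 genes in all.

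Hypothalamic Pomc, the mRNA of the arcuate neurons, was 49.7, 44.7, 59.6 and 83.4 CPM in older WT, 49.2, 71.0, 53.7 and 68.7 CPM in older 200H, and 56.4, 132 and 80.9 CPM in older 200M. The groups overlapped, and the highest library was 200M replicate 2 (200M against WT 0.61 ± 0.26, adjusted p = 0.243). In the older ovary Pomc had 2 to 21 counts per library (200M against WT -1.16 ± 0.51, adjusted p = 0.293). Mc2r was highest in the young ovary, at 0.942, 1.52, 1.44 and 2.35 CPM in WT and 1.59, 0.697, 0.712 and 1.49 CPM in 200M, which overlapped (-0.46 ± 0.42, adjusted p = 0.667).

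The wider CRH and ACTH pathway of the pituitary was examined through lists of genes grouped by function. Among 6 CRH and vasopressin ligands and their binding protein, 1 passed the filter on low counts in the comparisons with WT, and it fell in all 4. This was Crhbp, whose protein binds CRH and keeps it from Crhr1, and which was lower by 11.6-fold in young 200M (adjusted p = 5.8e-09), 9.37-fold in young 200H (adjusted p = 7.8e-05), 3.79-fold in older 200M (adjusted p = 0.0122), and by 5.41-fold in the older 200H group (adjusted p = 0.00642). It read 326 to 481 CPM in young WT against 18.6 to 85.6 in 200H and 22.1 to 43.9 in 200M, and 173 to 742 CPM in older WT against 26.0 to 145 in 200H and 52.2 to 175 in 200M. The groups did not overlap with WT in young pituitaries, and in the older ones the highest 200M library just passed the lowest WT library.

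Of 15 receptors and glucocorticoid feedback genes, 3 rose and 3 fell of 13 tested in young 200M, 4 rose and 1 fell of 13 in young 200H, 3 rose and 1 fell of 13 in older 200M, and 4 rose and 1 fell of 14 in older 200H. The shares of all genes called as higher and as lower were 11.5% and 10%, 6.56% and 5.72%, 11.7% and 9.77%, and 7.09% and 5.14% in these comparisons. Their medians were 0.25, 0.34, 0.061 and 0.078 log2 units. Not all genes called in this list are named below, and in young 200M as many fell as rose. The glucocorticoid receptor Nr3c1 rose in all 4 (0.62, 0.64, 0.80 and 0.70), and so did the mineralocorticoid receptor Nr3c2 (0.72, 0.62, 0.78 and 0.52). Fkbp5, a chaperone that glucocorticoids induce, rose in young 200M (0.95) and young 200H (0.97) and was at 0.34 and -0.087 in the older cohort. Sstr2, a somatostatin receptor, rose in older 200M (1.29) and older 200H (1.40), while Sgk1, a kinase induced by corticosteroids, fell in the same groups (-0.51 and -0.47).

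Of 12 other regulators of the lineage, all tested, 7 fell and 0 rose in young 200M (10% of all genes fell) and 4 fell and 0 rose in young 200H (5.72% fell), with medians of -0.33 and -0.35, whereas in the older cohort 0 were called in 200M and 1 fell in 200H (9.77% and 5.14% of all genes fell), with medians of -0.26 and -0.20. The orphan nuclear receptors Nr4a1 and Nr4a2, immediate early genes that act on the Pomc promoter after CRH, fell in young 200M (-1.95 and -1.99) and young 200H (-1.33 and -1.75). In older WT Nr4a2 ranged from 27.5 to 646 CPM, a spread in which a change of this size was not called (-1.92 ± 0.87 in 200M, adjusted p = 0.138). Among 9 genes of Pomc processing and peptide release, all tested, 3 rose in young 200M, 1 in young 200H, 5 in older 200M and 0 in older 200H (11.5%, 6.56%, 11.7% and 7.09% of all genes rose), and 0 fell in any, with medians of 0.21, 0.11, 0.32 and -0.049. In older 200M these included Pcsk2 (0.84) and the amidating enzyme Pam (0.46). Of 8 melanocortin receptors, partners and antagonists, 2 or 3 were tested, and 1 rose in each of the 4 comparisons: Mrap2, a melanocortin receptor partner (1.06, 0.88, 0.94 and 0.51).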

How the data were processed

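Processed gene counts of 69 libraries in 18 groups were used. Per the labels and the study's methods, the authors aligned reads to mm10 with STAR 2.7.1a and deposited raw counts per gene. Older libraries were poly(A)-selected, unstranded and single-end, counted with HTSeq 0.9.1 on Ensembl genes (pituitary, hypothalamus) or featureCounts on GENCODE genes (ovary). Young libraries were rRNA-depleted and paired-end, counted with featureCounts by strand. A gene's level therefore depends on the cohort, and genotypes were compared within a table's tissue and cohort. The differences between effects are the exception, since they set such changes side by side across cohorts or tissues in 1 fit. Columns with the authors' DESeq2 fold changes and p-values were not used, and 3 count columns under a repeated header name were left out. Names covered 99.54% of the IDs. The 66 libraries that occur in 2 tables differed in 0 genes.

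Libraries held from 3321845 to 14655095 counts. Replicates were checked for copies: of 99 pairs, the lowest chi-square per degree of freedom was 1.87. One young WT pituitary column is numbered 3 in its header, while the sample titles of that group are numbered 1, 2 and 4. It was used as a replicate of the group with no number of its own and is called u.

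Counts were fitted with edgeR 4.0.16 (filterByExpr, TMM, quasi-likelihood F test, R 4.3.3) for the 2 genotypes compared, with p-values adjusted by Benjamini-Hochberg over all genes tested. An SE is the log2 fold change divided by the square root of F. There were 18 comparisons of genotypes and 8 others (4 differences between effects, 4 between WT tissues). The alternatives were RLE size factors, total counts alone, no filter on low counts, all 3 genotypes in 1 fit, DESeq2 1.42.0, a replicate block, and omission of each library. The calling script was tested on simulated data. Exon lengths and 3′UTRs came from GENCODE M21, and promoters and miRNAs from RefSeq.

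The 7 genes, the pathway and marker lists and the tests were chosen with earlier results of these data known. Every one of the 7 is named, and other genes are named where they belong to a list and were called, or by their likeness to one of the 7. Not every called gene of a list is named.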

Additional observations from a re-analysis of the deposited data

Results flagged for a closer look

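One library stood apart from its group among 56 sets of 4 libraries checked by Dixon's test, where chance marks about 1 in 20. Crhr1 in young 200M ovary was 1.61 CPM in replicate 4 and 2.42 to 2.57 CPM in the other 3 libraries, so that the gap made up 0.849 of the range, above Dixon's critical value for 4. The level rests on few counts, and leaving this library out did not lead to a call of Crhr1 in that comparison.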

How the results depend on the processing

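Of the log2 fold changes given for single genes, 776 values from alternatives kept direction and side of the threshold, 19 passed it where the main value did not, 14 no longer passed it and 29 reversed. The reversed values were not called as reported, and 1 of them, Pomc in young 200M with a replicate block, was called once reversed. For counts of called genes among the 7, 345 stayed within 1.5 times and 29 did not, and the cause was not tested.

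Replicate numbers were taken as names only, since in 0 of the 18 genotype comparisons did every same-numbered pair correlate over 0.1 in its deviations (r from -0.70 to 0.44). With a replicate block, which leaves out the young WT pituitary library whose number matches no title, Pomc in young 200M reversed to -0.31 (adjusted p = 0.0022), Pax7 in older 200H reversed to -0.057, the count of called genes fell to 1 in young 200H pituitary (Crhr1 adjusted p = 0.0842) and to 0 in older 200M ovary (adjusted p = 0.12), and it became 1 between older 200M and 200H pituitary (Pomc, adjusted p = 0.00224).

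Pomc in young 200M was also reversed with RLE factors (-0.0019) and all 3 genotypes in 1 fit (-0.0085). Total counts alone reversed Pomc in young 200H (0.058), and in older 200H Tbx19 (0.091) and Avpr1b (0.11), and gave 1 call in the young difference between tissues, as did DESeq2. With no filter on low counts the count was 2 in older 200H pituitary, 3 between older 200M and 200H pituitary, and 1 each in older 200M hypothalamus, older 200M against 200H hypothalamus, both differences between cohorts and the older difference between tissues. DESeq2 gave 1 in older 200M hypothalamus (Crhr1, adjusted p = 0.0463) and 1 in older 200M against 200H ovary (Crhr1, adjusted p = 0.001).

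Leaving out 1 library at a time gave counts of 1 to 2 in young 200H pituitary, 0 to 1 between older 200M and 200H pituitary, 0 to 1 in older 200M ovary, 0 to 1 in the 200M difference between cohorts, 0 to 1 in the young difference between tissues and 3 to 5 between WT hypothalamus and ovary. It reversed uncalled values, which ranged in young 200M pituitary from -0.12 to 0.14 for Pomc, from -0.39 to 0.14 for Avpr1b and from -0.33 to 0.037 for Neurod1. In young 200H pituitary the ranges were -0.19 to 0.064 for Pomc and -0.023 to 0.42 for Neurod1. In older pituitary they were -0.057 to 0.21 for Neurod1 in 200M, and in 200H -0.22 to 0.11 for Tbx19, -0.10 to 0.38 for Pax7 and -0.31 to 0.27 for Avpr1b. For Crhr1 they were -0.15 to 0.22 in young 200M hypothalamus, -0.15 to 0.38 in young 200M ovary and -0.24 to 0.28 in older 200H ovary.

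Over all genes, the count called in older 200M hypothalamus was 1 and ranged to 1079 across the alternatives, from 101 to 1329 around 482 in older 200M ovary, from 109 to 845 around 497 in young 200M ovary, from 77 to 863 around 288 between older 200M and 200H ovary, from 11 to 549 around 18 between older 200M and 200H pituitary, from 0 to 130 around 7 between young 200M and 200H pituitary, and from 2 to 78 around 5 and 0 to 132 around 2 in the differences between cohorts for 200M and 200H. Between older 200M and 200H hypothalamus the count was 0 and ranged to 1325 (668 by DESeq2), and in older 200H pituitary it ranged from 1387 to 2859 around 1825. In the remaining comparisons that moved by over 1.5 times it reached 30, 10 and 13 in young hypothalamus (200M, 200H and 200M against 200H), 241 and 45 in young ovary (200H and 200M against 200H), 97 in older 200H hypothalamus and 21 in older 200H ovary. Avpr1b had 7 to 48 counts per older WT pituitary library, which limits what could be seen for it.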

Other observations

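Genes most like each of the 7 over pituitary libraries were sought among 10752 genes at 5 CPM or more in both cohorts. Within each cohort the mean of each genotype was first taken off the log2 CPM. Genes were then ranked by the smaller of the 2 within-cohort Pearson correlations, each over 11 libraries of 3 genotypes. The values describe how libraries vary within a genotype, not how genotypes differ, and they are not tests. Shared tissue composition was not separated from them. Pomc was nearest to Gfra1 (smaller r 0.81), Lgi3 (0.80), Cdh13 (0.79), Oacyl (0.77) and Ehbp1 (0.74), of which Oacyl is a melanotrope marker. Pax7 was nearest to Kcnc1 (0.90), Lrrn2 (0.88), Celf5 (0.83), Lrp2 (0.82) and Slit1 (0.80). Tbx19 was nearest to Frmd4a (0.77) and Cables1 (0.77), and Crhr1 to Rhbdd1 (0.80) and Hsd17b12 (0.79). No gene was among the 5 nearest of more than 1 of the 4. Avpr1b, Neurod1 and Mc2r were under 5 CPM in at least 1 cohort and were not ranked.

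Mrap, which carries the ACTH receptor Mc2r to the cell surface, was 2.29-fold lower in young 200M ovaries than in WT (adjusted p = 0.0166, edgeR), while Mc2r itself was not called there. The adrenal cortex marker list holds Mrap itself, so its sum is not separate from the Mrap value. It read 22.3 to 35.3 CPM in young WT ovaries, 11.1 to 24.1 in 200H and 8.31 to 17.5 in 200M. None of its 5 genes was at 0 in every library, and its member Cyp11b1 was not called in 200M (-0.42, adjusted p = 0.801, edgeR). Cyp11a1 was 1.61-fold lower in 200M (adjusted p = 0.0185). The corpus luteum and theca list overlapped, at 6476 to 8559 CPM in WT and 4742 to 7931 CPM in 200M. The part of tissue composition in the Mrap value was not tested. Fkbp5, which rose in young mutant pituitaries, was 1.35-fold lower in young 200M ovaries (adjusted p = 0.0319) and 2.90-fold lower in older 200M ovaries (adjusted p = 0.00795).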
